A study of Arabidopsis thaliana with 12 samples.

Results

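The comparison described here asks whether the root response to nitrate differs between afb3-1, a mutant of the auxin receptor AFB3, and its wild type Ws. It used all 12 of the 12 arrays of the series and all 22746 probe sets other than the array controls. The quantity of interest, called the interaction below, is the nitrate response in afb3-1 (KNO3 minus KCl) minus the nitrate response in Ws, on the log2 scale, so that a positive value means a higher response in afb3-1. The 4 groups of 3 arrays were: afb3-1 roots given 5 mM KNO3, afb3-1 roots given 5 mM KCl, Ws roots given 5 mM KNO3 and Ws roots given 5 mM KCl, each for 2 h. All plants of the 4 groups were seedlings on day 15, grown in hydroponics for 14 days on 0.5 mM ammonium succinate, their only nitrogen, plus 3 mM sucrose, and whole roots were taken. The nitrate response is therefore one of plants that already had reduced nitrogen, and KCl controls for the potassium. Whole roots mix cell types, so fewer cells of a type and less RNA per cell cannot be told apart. Same-numbered arrays of the 2 genotypes within a treatment were treated as pairs, which gave 6 within-pair differences, 3 in KNO3 and 3 in KCl.

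AFB3 belongs to the TIR1/AFB family of F-box proteins. With auxin bound, these proteins mark Aux/IAA repressors for degradation, which frees the ARF transcription factors to act on auxin-inducible genes. In Arabidopsis roots AFB3 is known as a nitrate-inducible receptor that links nitrate to primary and lateral root growth, and the study is known for placing the transcription factors NAC4 and OBP4 downstream of it. Nitrate itself acts as a signal within minutes to hours and induces genes of its own uptake, of its reduction and of the supply of reductant. None of AFB3, TIR1, AFB1, AFB2, NAC4, OBP4 and the miR393 genes had a named probe set. They were not analysed here, so the genotype labels could not be checked on the mutated gene. The study's full set of AFB3-dependent genes was not used here, so the values below were not compared with it.

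The deposited signals had medians between 3.78 and 3.92 on the 12 arrays, and the number of arrays limits the precision. Deviations from the group means of paired arrays correlated between 0.301 and 0.661 across probe sets in all 6 pairs. The spread of the afb3-1 minus Ws difference over probe sets was largest in the KCl pair numbered 3 (SD 0.346) and the KNO3 pair numbered 1 (SD 0.319) and lay between 0.222 and 0.277 in the other pairs. A single gene was known for 13513 of the probe sets, and genes that the annotation gives only by locus are named by locus here. List members are called measured where a probe set was assigned to that gene alone. A further 8730 tested probe sets had no gene given and may include other members of these lists.

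The nitrate responses of the genotypes differed past the threshold for none of the probe sets. In the paired limma fit 0 of 22746 probe sets (0%) reached a Benjamini-Hochberg adjusted p of 0.05, and the smallest adjusted p was 0.473. At an unadjusted p under 0.05 there were 2073 probe sets (9.11%), of which 979 (4.3%) had a higher response in afb3-1 and 1094 (4.81%) a lower one. That split depended on scaling, since after centring each array on its median 1626 of 2366 were higher in afb3-1. Without the pairs the count was also 0, the smallest adjusted p was 0.999, and 664 probe sets (2.92%) had an unadjusted p under 0.05. For 3396 probe sets (14.9%) the 3 within-pair differences in KNO3 lay entirely above (1801, 7.92%) or entirely below (1595, 7.01%) the 3 in KCl. Interactions were small for most transcripts: the middle 95% of estimates ran from −0.51 to 0.49, the median size was 0.15, and 86 estimates exceeded 1 in size, 61 of them above 0 and 25 below. The 95% confidence interval of an interaction had a median half-width of 0.38 in the paired fit and of 0.48 without pairs. These intervals are not adjusted for the number of probe sets tested. Larger estimates also stayed short of the adjusted threshold: the plastid gene psbI had an interaction of 1.56 with an adjusted p of 0.473. Leaving out the KCl pair numbered 3, the one with the widest spread, lowered the smallest adjusted p to 0.130 and raised the number at an unadjusted p under 0.05 to 2886, still with 0 past the threshold. Without the KNO3 pair numbered 1 that number was 1215 and the smallest adjusted p was 0.900.

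Transcripts that nitrate did change were next examined as a group. They were chosen by the nitrate response averaged over both genotypes, a contrast that does not use the difference between genotypes. At an adjusted p of 0.05, 534 probe sets (2.35%) changed, 359 higher (1.58%) and 175 lower (0.769%) in KNO3 than in KCl. Leaving out 1 pair gave between 189 and 553. The summaries of this set that follow were chosen after values had been seen. All 534 had the same sign of response in afb3-1 and in Ws. The median response of the 359 that rose was 1.36 in afb3-1 and 1.33 in Ws, and that of the 175 that fell was −0.85 in both genotypes. Taken towards a stronger response in afb3-1, the interaction had a median of 0.04 and quartiles of −0.13 and 0.19, with a stronger response in afb3-1 for 300 and a weaker one for 234. An unadjusted p under 0.05 was found for 46 of the 534 (8.61%), which is near the 9.11% of all probe sets: 28 were stronger in afb3-1 and 18 weaker.

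The intervals bound the difference between genotypes within this set only. Selection by the mean over both genotypes favours transcripts that respond in both, so a response lost in afb3-1 is less likely to be in it. For 450 of the 534 probe sets (84.3%) the 95% interval excluded a response in afb3-1 that was at most 50% of that in Ws, and for 534 of 534 it excluded a complete loss, with the mean response taken at its estimate. Among the 304 that changed at least 2-fold the first count was 292 (96.1%), and among the 106 that changed at least 4-fold it was 106. Among the 230 that changed less than 2-fold it was 158 (68.7%). In the 106 with the largest responses the interaction towards a stronger response in afb3-1 had a median of 0.11, with 73 stronger in afb3-1 and 33 weaker. Of these, 14 (13.2%, against 9.11% of all probe sets) had an unadjusted p under 0.05. Without pairs it was 1 of the 106, against 2.92% of all probe sets. The plot of the responses in the 2 genotypes shows these transcripts along the line of equal response.

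**Figure D1:**
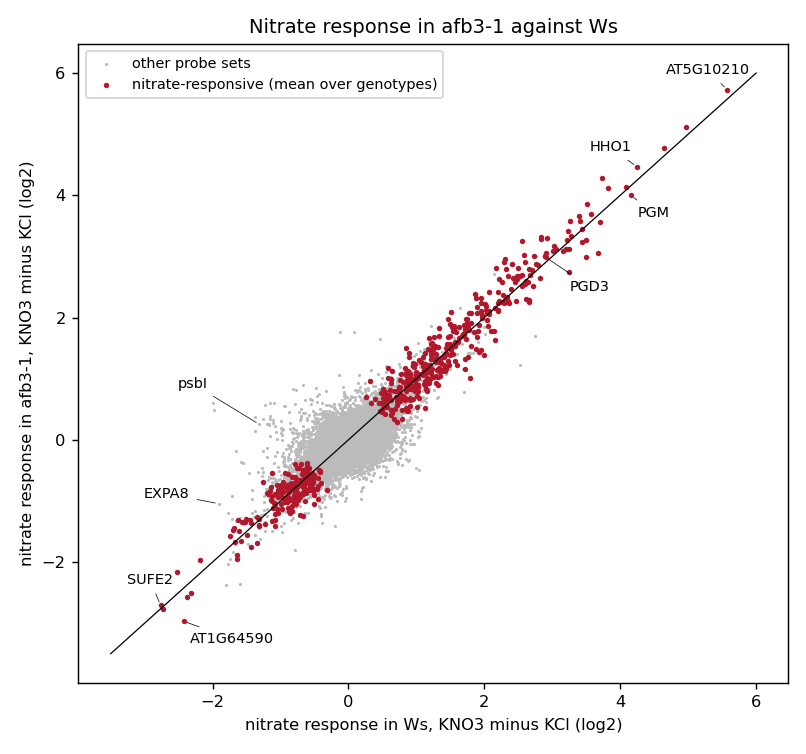
Nitrate response (KNO3 minus KCl, log2) in afb3-1 on the vertical axis against Ws on the horizontal axis, 1 point for each of 22746 probe sets, with the 534 probe sets that nitrate changed over both genotypes in red and the line of equal response in black. The red points follow the line from AT1G64590 and SUFE2 at the bottom left to AT5G10210 at the top right, and psbI and EXPA8 are examples of points to its left.

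Among the strongest nitrate-induced genes was HHO1 (AT3G25790), a GARP-type transcription factor of nitrogen and phosphate signalling. Its log2 signal was 5.48, 5.71 and 6.47 in afb3-1 KNO3 and 1.34, 1.27 and 1.64 in afb3-1 KCl, against 5.32, 5.62 and 6.59 in Ws KNO3 and 1.58, 1.40 and 1.82 in Ws KCl. The KNO3 arrays of both genotypes lay far above the KCl arrays, and KNO3 arrays of the genotypes overlapped. The response was 4.47 in afb3-1 and 4.24 in Ws, and the interaction was 0.22 (95% interval −0.10 to 0.55, adjusted p = 0.667). Within pairs afb3-1 minus Ws was 0.16, 0.08 and −0.12 in KNO3 and −0.25, −0.13 and −0.18 in KCl, so these 2 sets of differences did not overlap although each was small beside the response. PGM (AT1G78050), a phosphoglycerate mutase of glycolysis, read 8.68, 8.47 and 9.48 in afb3-1 KNO3 and 4.89, 4.98 and 4.75 in afb3-1 KCl, against 9.0, 8.33 and 9.33 in Ws KNO3 and 4.77, 4.86 and 4.57 in Ws KCl. Its interaction was −0.16 (−0.53 to 0.21).

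AT5G10210 had the largest response, 5.73 in afb3-1 and 5.57 in Ws, with 7.65, 7.23 and 8.24 in afb3-1 KNO3, 2.04, 1.75 and 2.14 in afb3-1 KCl, 7.69, 7.21 and 7.79 in Ws KNO3 and 2.36, 1.70 and 1.92 in Ws KCl. Its interaction was 0.16 (−0.27 to 0.59). The other rises named by the rule were AT2G48080 (interaction 0.15, −0.31 to 0.61), AT4G18340, a glycosyl hydrolase (0.35, −0.04 to 0.73), the protein kinase WNK7 (0.17, −0.35 to 0.68) and AT2G28780 (0.00, −0.34 to 0.34). AT3G07350 was the only one of the 8 with an unadjusted p under 0.05. It read 6.93, 6.64 and 7.22 in afb3-1 KNO3 and 2.64, 2.46 and 2.82 in afb3-1 KCl, against 6.66, 6.80 and 6.61 in Ws KNO3 and 2.95, 3.18 and 2.76 in Ws KCl. Its response was higher in afb3-1, at 4.29, than in Ws, at 3.73, with an interaction of 0.56 (0.03 to 1.09, unadjusted p = 0.0415, adjusted p = 0.530).

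The nitrate-repressed genes gave the same kind of result. SUFE2 (AT1G67810), an activator of cysteine desulfurase in iron-sulfur cluster assembly, read 2.79, 2.76 and 2.75 in afb3-1 KNO3 and 5.28, 5.02 and 6.12 in afb3-1 KCl, against 2.60, 2.64 and 3.28 in Ws KNO3 and 5.21, 5.00 and 6.60 in Ws KCl. The response was −2.71 in afb3-1 and −2.76 in Ws, and the interaction was 0.06 (−0.44 to 0.56). The F-box protein AT2G32560 had an interaction of −0.05 (−0.46 to 0.37), AT4G17670 of 0.37 (−0.10 to 0.84), the glutaredoxin AT4G33040 of 0.22 (−0.13 to 0.56) and the BTB/POZ protein AT1G55760 of −0.24 (−0.58 to 0.09). AT1G64590 stood out among the 6, with 7.42, 7.0 and 6.34 in afb3-1 KNO3 and 9.85, 9.80 and 10.02 in afb3-1 KCl, against 7.72, 7.08 and 6.85 in Ws KNO3 and 9.61, 9.57 and 9.75 in Ws KCl. Every afb3-1 array was below its Ws partner in KNO3 and above it in KCl. The response was −2.97 in afb3-1 and −2.43 in Ws, an interaction of −0.54 (−0.89 to −0.19, unadjusted p = 0.00588, adjusted p = 0.484), and without pairs the unadjusted p was 0.170.

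**Figure D2:**
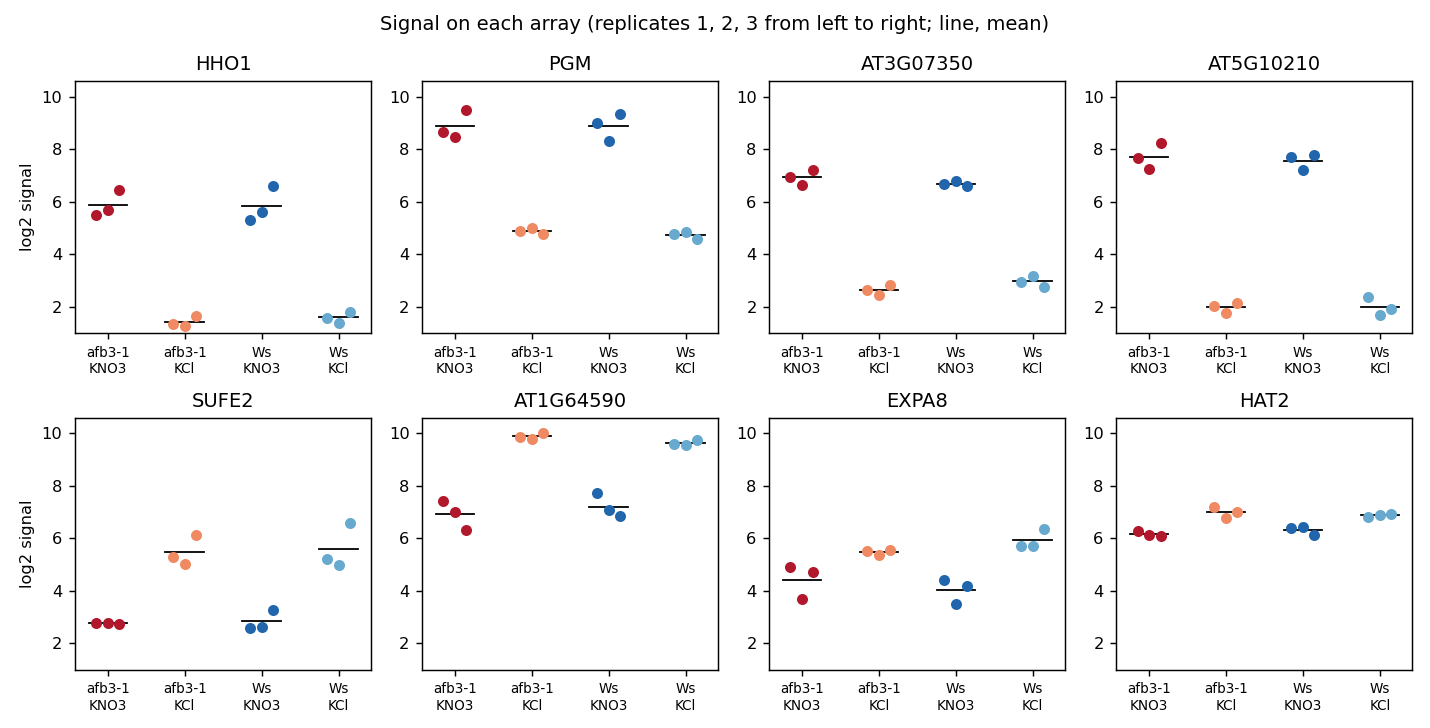
Log2 signal of 8 genes on every array, with 1 panel per gene, the groups afb3-1 KNO3, afb3-1 KCl, Ws KNO3 and Ws KCl along the horizontal axis, points for replicates 1 to 3 and a line for the mean. HHO1, PGM, AT3G07350 and AT5G10210 are higher and SUFE2, AT1G64590, EXPA8 and HAT2 lower in KNO3 than in KCl in both genotypes.

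Of the 4 measured nitrate signalling regulators, HHO1, HHO2 (AT1G68670) and HHO3 (AT1G25550) rose with nitrate over both genotypes and 0 of 4 passed the interaction test. The list had a median interaction of −0.04, against 0.02 over all probe sets. HHO3 had an interaction of −0.13 (−0.71 to 0.44) and HHO2 of 0.06 (−0.63 to 0.75). The replicates of HHO2 were uneven in KCl, where it read 3.63, 3.6 and 1.65 in afb3-1 and 3.1, 3.26 and 2.52 in Ws, and replicate 3 was lowest in both genotypes. Without that KCl pair the HHO2 interaction was −0.37 (−0.73 to −0.019), of the opposite sign, with an adjusted p of 0.369. NRG2 (AT3G60320), a regulator that acts with NLP7, had a response of 0.06 in afb3-1 and 0.30 in Ws, an interaction of −0.24 (−0.56 to 0.08).

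The intervals of the reductant supply genes were narrower than those of HHO2 and HHO3, though not than those of HHO1 and NRG2. PGD3 (AT5G41670), a 6-phosphogluconate dehydrogenase of the oxidative pentose phosphate pathway, read 10.82, 10.66 and 11.03 in afb3-1 KNO3 and 7.76, 7.86 and 7.93 in afb3-1 KCl, against 10.89, 10.67 and 10.85 in Ws KNO3 and 7.83, 7.85 and 8.02 in Ws KCl. Paired arrays differed by at most 0.18, and the interaction was 0.08 (−0.24 to 0.40). PGD1 (AT1G64190), which the naming rule did not reach, had 0.03 (−0.30 to 0.35), PGD2 (AT3G02360) −0.06 (−0.38 to 0.26) and the cytosolic isocitrate dehydrogenase cICDH 0.06 (−0.36 to 0.48). Of these 5 genes with PGM, 3 rose with nitrate over both genotypes and 0 passed the interaction test, with a list median of 0.03. The 2 measured nitrate transporters gave −0.25 (−0.64 to 0.14) for NPF6.4 (AT3G21670), a member of the NRT1/PTR family, and −0.15 (−0.75 to 0.45) for the high-affinity transporter NRT2.5. NRT2.5 varied more between replicates than between groups, from 2.65 to 6.89 in afb3-1 KNO3 and from 3.56 to 6.77 in Ws KNO3, and the low array had the number 2 in both genotypes.

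Auxin-inducible genes can serve as a readout of TIR1/AFB signalling. The members measured here were some of the Aux/IAA and GH3 families, WES1 among the latter, with HAT2. Belonging to these families does not make each gene such a readout. Whether auxin induces each of them in these roots was not tested. Of 13 measured, 0 passed the interaction test and 1 (7.69%, against 9.11% of all probe sets) had an unadjusted p under 0.05, with a list median of 0.01 and a range of −0.35 to 0.54. Of the 13, 8 were in the dimmest 33.3% of probe sets (mean log2 up to 2.32), where differences can be understated, so the list says little about most of its members. That gene was IAA33, an Aux/IAA family member, with 2.88, 1.98 and 2.11 in afb3-1 KNO3 and 1.99, 1.98 and 2.82 in afb3-1 KCl, against 2.54, 2.1 and 2.12 in Ws KNO3 and 2.09, 2.38 and 3.74 in Ws KCl. Its groups overlapped, and the interaction of 0.54 (0.05 to 1.03) had an adjusted p of 0.516. HAT2, an auxin-inducible homeodomain-leucine zipper factor, was the one member that nitrate changed over both genotypes. It read 6.27, 6.12 and 6.10 in afb3-1 KNO3 and 7.18, 6.77 and 7.02 in afb3-1 KCl, against 6.39, 6.44 and 6.12 in Ws KNO3 and 6.82, 6.89 and 6.95 in Ws KCl. It was lower in KNO3 by 0.83 in afb3-1 and by 0.57 in Ws, with an adjusted p of 0.0187 for the mean response and an interaction of −0.25 (−0.63 to 0.13). GH3.17, which conjugates auxin to amino acids, had an interaction of −0.34 (−0.73 to 0.06) and the repressor IAA29 of 0.33 (−0.14 to 0.81).

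Lateral root initiation genes did not pass either (0 of 4, list median 0.17). LBD16, which acts downstream of ARF7 and ARF19 in founder cells, read 4.01, 5.21 and 4.51 in afb3-1 KNO3 and 4.43, 4.57 and 4.61 in afb3-1 KCl, against 3.97, 4.70 and 4.46 in Ws KNO3 and 4.56, 4.92 and 4.64 in Ws KCl. Its interaction was 0.37 (−0.02 to 0.76, unadjusted p = 0.0612), and without pairs the unadjusted p was 0.347. Every within-pair difference was above 0 in KNO3 (0.04, 0.50 and 0.05) and below 0 in KCl (−0.13, −0.36 and −0.03), some of them barely. The KNO3 and KCl differences did not overlap for 14.9% of all probe sets. LBD29 had 0.19 (−0.23 to 0.60), PUCHI 0.15 (−0.22 to 0.52) and the receptor kinase CR4 (ACR4) −0.21 (−0.66 to 0.25). The type A response regulators of cytokinin signalling, ARR15 (0.21, −0.11 to 0.53) and RR16 (−0.03, −0.45 to 0.39), did not pass. PUCHI, CR4, ARR15, RR16 and IAA29 were among these dim probe sets. The root hair expansins EXPA18 and EXPA7 had −0.38 (−1.05 to 0.28) and 0.07 (−0.63 to 0.77).

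**Figure D3:**
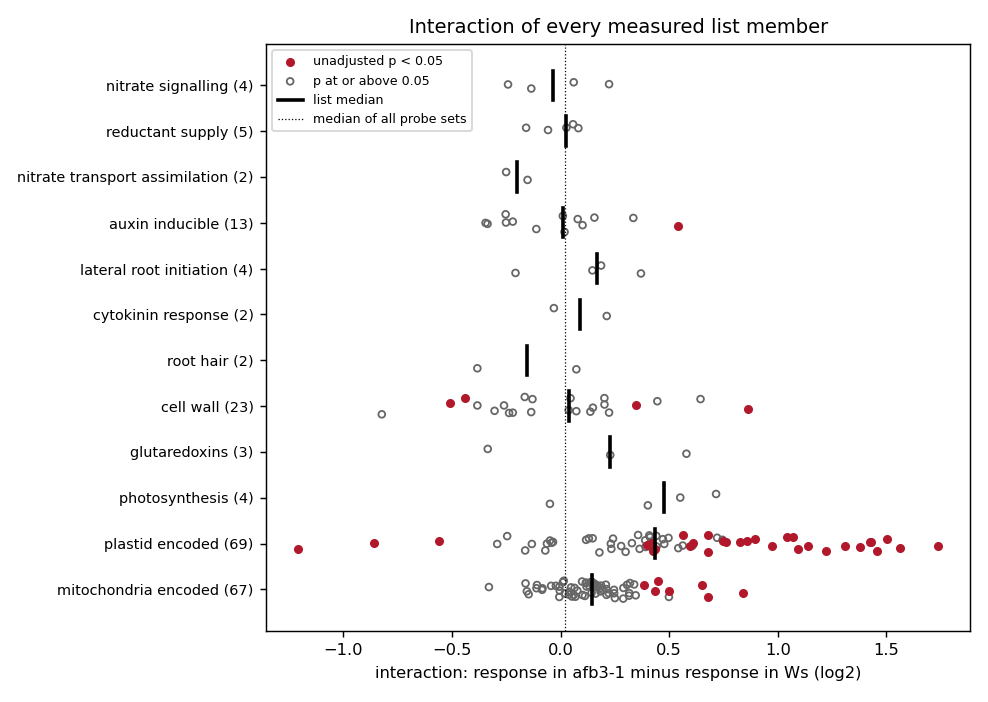
Interaction (response in afb3-1 minus response in Ws, log2) of every measured member of 12 gene lists, 1 row per list with the number measured in brackets, 1 point per gene, filled where the unadjusted p was under 0.05, a thick line at the list median and a dotted line at the median of all probe sets, 0.02. Plastid-encoded genes lie mostly to the right of 0, and nitrate signalling genes lie between −0.24 and 0.22. The mitochondrial row is the list of 67 genes as first written.

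Among cell wall genes EXPA8 (AT2G40610), an expansin that loosens cell walls, had the smallest interaction p. It read 4.91, 3.68 and 4.71 in afb3-1 KNO3 and 5.51, 5.36 and 5.56 in afb3-1 KCl, against 4.41, 3.50 and 4.17 in Ws KNO3 and 5.73, 5.70 and 6.37 in Ws KCl. Every afb3-1 array was above its Ws partner in KNO3 (by 0.50, 0.18 and 0.53) and below it in KCl (differences of −0.23, −0.34 and −0.81). The response was −1.05 in afb3-1 and −1.91 in Ws, an interaction of 0.86 (0.44 to 1.28, unadjusted p = 0.000997, adjusted p = 0.473), and the mean response had an adjusted p of 0.0577. Without pairs the unadjusted p of this interaction was 0.0829. EXPB3 (−0.51, −0.93 to −0.09), EXPA15 (−0.44, −0.84 to −0.04) and XTH21, a xyloglucan endotransglucosylase family member (0.35, 0.02 to 0.68), also had an unadjusted p under 0.05. Over the 23 measured cell wall genes that makes 4 (17.4%, against 9.11% of all probe sets), 2 in each direction, with 0 past the threshold and a median of 0.04. The glutaredoxin GRX480 had 0.58 (−0.00 to 1.16), ROXY2 −0.34 (−0.82 to 0.15) and ROXY1 0.23 (−0.23 to 0.69).

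The genes of smallest interaction p, 20 in all and 10 in each direction, did not pass the threshold, with an adjusted p of 0.473 for each. They were chosen by the interaction itself and are described with that in view. Of the 10 with a higher response in afb3-1, 9 had a positive response in afb3-1 and a negative one in Ws by point estimate, and of the 10 with a lower response, 9 had a negative response in afb3-1 and a positive one in Ws. None of the 20 passed an adjusted p of 0.05 for the nitrate response averaged over both genotypes. That is not an absence of change: AT2G44580 was lower in KNO3 by point estimate in afb3-1 (−0.46) and in Ws (−1.28). Its mean response had an adjusted p of 0.113. Taken alone the nitrate response passed an adjusted p of 0.05 in afb3-1 for 0 of the 20 and in Ws for 4.

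AT1G71740 had the smallest p of the named genes. It read 6.3, 6.18 and 5.90 in afb3-1 KNO3 and 5.78, 5.98 and 5.93 in afb3-1 KCl, against 5.89, 5.86 and 5.64 in Ws KNO3 and 6.26, 6.44 and 6.68 in Ws KCl. The Ws arrays separated by treatment while the afb3-1 arrays overlapped, and the interaction was 0.89 (0.56 to 1.23, unadjusted p = 0.000131). AT2G35820 read 3.22, 3.31 and 3.27 in afb3-1 KNO3 and 2.28, 2.37 and 2.76 in afb3-1 KCl, against 1.97, 1.64 and 2.46 in Ws KNO3 and 2.43, 2.09 and 2.53 in Ws KCl. Here the afb3-1 KNO3 arrays lay above all other arrays, and the interaction was 1.12 (0.63 to 1.61). AT5G13900 (0.84), AT4G29370 (0.80, in the dimmest 33.3%), AT2G44580 (0.81), AT4G18280 (0.72) and AT2G21180 (0.81) followed, and the remaining 3, psbI, ccsA and AT2G07719, belong to the organelle lists described below.

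In the other direction AT1G23280 read 4.57, 4.99 and 5.04 in afb3-1 KNO3 and 5.00, 4.93 and 4.26 in afb3-1 KCl, against 5.28, 5.66 and 5.48 in Ws KNO3 and 4.57, 4.75 and 4.0 in Ws KCl. Its response was 0.13 in afb3-1 and 1.03 in Ws, an interaction of −0.90 (−1.24 to −0.56, unadjusted p = 0.000142). RBL (AT3G55510, REBELOTE), known for its role in floral meristem determinacy, read 5.39, 5.68 and 5.70 in afb3-1 KNO3 and 5.73, 5.61 and 5.52 in afb3-1 KCl, against 5.87, 6.15 and 6.12 in Ws KNO3 and 5.34, 5.57 and 4.85 in Ws KCl. The Ws arrays separated by treatment and the afb3-1 arrays did not, with an interaction of −0.82 (−1.21 to −0.43). RH39, a DEAD-box RNA helicase of chloroplast ribosomal RNA maturation, had −0.78 (−1.13 to −0.44), and 3xHMG-box1, an HMG-box protein that associates with condensed chromosomes, had −0.80 (−1.17 to −0.43) at a mean log2 of 1.84. The remaining 6 were AT2G39300 (−0.79), AT5G57655 (−0.77), AT3G20150 (−0.83), AT1G69526 (−0.78), AT4G24790 (−0.71) and AT4G33810 (−0.74). Without pairs 9 of the 10 higher and 7 of the 10 lower genes had an unadjusted p under 0.05, against 2.92% of all probe sets. That fit uses the same estimates and arrays, so the choice of these genes by p raises both counts. In the fit without the KCl pair numbered 3, AT1G71740, AT4G29370, AT2G44580 and AT1G23280 were among the genes that shared an adjusted p of 0.213. Their interactions in that fit were 0.80, 0.87, 0.92 and −0.91.

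**Figure D4:**
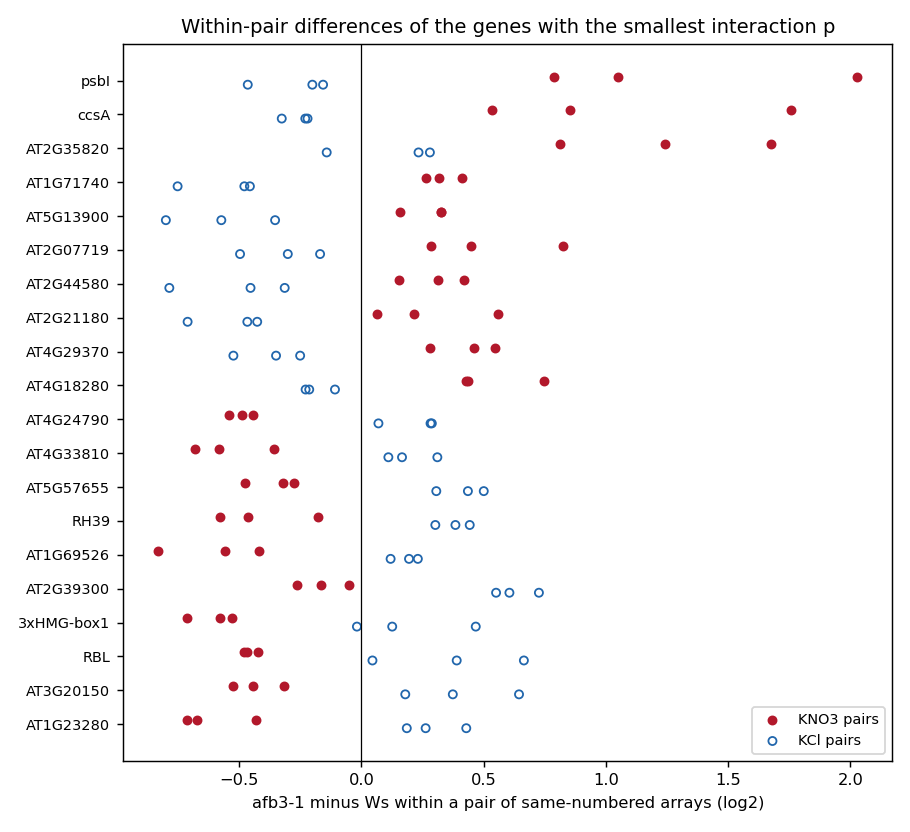
Difference afb3-1 minus Ws (log2) within each pair of same-numbered arrays, for the 20 genes of smallest interaction p, with 3 filled points for KNO3 pairs above 3 open points for KCl pairs on each row. KNO3 and KCl points do not overlap for any of these genes, which the choice by p favours, and for psbI and ccsA the KNO3 points spread widely.

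Within the nitrate-responsive set, 12 of 534 probe sets had an interaction with an unadjusted p under 0.01 (2.03% of all probe sets did), and 7 of them have a gene name. These genes were picked after their values were seen. AT3G01260 responded less in afb3-1 (1.01, against 1.79 in Ws) with an interaction of −0.78 (−1.16 to −0.40, unadjusted p = 0.000915). AT5G57610 was also nearer 0 in afb3-1 (−0.69, against −1.26 in Ws). The other 5 had larger responses in afb3-1: AT5G01740 (2.91, against 2.28 in Ws), AT3G62930 (3.26, against 2.56 in Ws), AT1G59970 (1.36, against 0.89 in Ws), AT1G14260 (2.87, against 2.4 in Ws) and AT1G64590, given above. None had an adjusted p below 0.473.

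The group with the most small p-values was the plastid-encoded transcripts, which encode subunits of photosynthetic complexes, ribosomes and RNA polymerase of the plastid. Of 69 measured, 28 had an unadjusted p under 0.05 with a higher response in afb3-1 and 3 (rpl22, rps3 and rpl36, which encode ribosomal proteins) with a lower one, and 0 passed the threshold. That is 44.9%, against 9.11% of all probe sets. The median interaction was 0.44, and 57 of 69 lay above 0. psbI, a small photosystem II subunit, read 4.70, 4.29 and 4.32 in afb3-1 KNO3 and 4.19, 3.54 and 4.82 in afb3-1 KCl, against 3.65, 3.50 and 2.29 in Ws KNO3 and 4.66, 3.70 and 5.02 in Ws KCl. Its interaction was 1.56 (0.94 to 2.18, adjusted p = 0.473). ccsA, for cytochrome c maturation, had 1.31, psbM of photosystem II 1.09 and ndhD of the NADH dehydrogenase-like complex 1.46. By complex, a grouping made after values had been seen, the median was 1.38 for 5 photosystem I genes, 0.81 for 6 ATP synthase genes, 0.47 for 15 photosystem II genes, 0.43 for 10 genes of the NADH dehydrogenase-like complex and 0.15 for 15 ribosomal genes.

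The size of this pattern differed between pairs. The median afb3-1 minus Ws difference of the plastid genes was 0.56, 0.01 and 0.68 in the KNO3 pairs. In the KCl pairs it was −0.13, −0.10 and 0.13. The median level of the 69 genes was 4.79, 4.20 and 4.35 in afb3-1 KNO3 and 4.42, 3.72 and 4.30 in afb3-1 KCl, against 3.70, 4.68 and 2.72 in Ws KNO3 and 4.66, 4.0 and 4.09 in Ws KCl, so it differed between Ws KNO3 arrays by more than between groups, and the low array was replicate 3. Of the 69, 28 (40.6%) were above 0 at an unadjusted p under 0.05, against 4.3% of all probe sets, and both shares moved with the fit. Without the KNO3 pair numbered 3 the median interaction was 0.35 and the count was 17, against 4.66% of all probe sets. Without the KNO3 pair numbered 2 these values were 0.70 and 42 (3% of all), without KNO3 pair 1 they were 0.39 and 18 (2.52%), and without KCl pair 2 they were 0.41 and 18 (3.26%). The count was 9 (13.0%) without any pairing, against 1.97% of all probe sets, and 12 (17.4%) with the replicate number as a block across treatments, against 2.45%. It was lowest without moderation of the variances, at 7 (10.1%, against 4.07%) with pairs and 5 (7.25%, against 2.56%) without. The genes share a genome and long joint transcripts, so they are not independent of each other.

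Nuclear photosynthesis genes, markers of green tissue, had a median interaction of 0.48 with 0 of 4 at an unadjusted p under 0.05: LHCB4.1 0.72 (−0.17 to 1.60), RCA 0.55 (−0.25 to 1.35), LHCB4.2 0.40 (−0.46 to 1.26) and LHCB4.3 −0.05 (−0.38 to 0.28). Leaving out 1 pair moved LHCB4.1 between 0.32 (without KCl pair 1) and 1.17 (without KCl pair 3), and RCA between 0.16 and 0.95 under the same omissions. Across arrays, LHCB4.1 ran from 5.79 to 6.33 in afb3-1 KNO3, from 5.07 to 7.07 in afb3-1 KCl, from 4.73 to 5.49 in Ws KNO3 and from 4.90 to 5.87 in Ws KCl. The mitochondrial list as written holds every measured locus that begins AT2G07. Of its 67 genes 37 begin AT2G076 or AT2G077, the range kept when the list was later narrowed, and 30 do not, so it mixes copies of the mitochondrial genome with other nuclear genes, and its values are not those of mitochondrial transcripts alone. In this list 7 genes had an unadjusted p under 0.05 and a higher response in afb3-1 (10.4%, against 4.3% of all probe sets), and 0 had a lower one, against 4.81%. The interaction was above 0 for 54 of the 67 (80.6%, against 53.5% of all probe sets), with 0 past the threshold and a median of 0.14. AT2G07719 had 0.84, AT2G07751 0.68, AT2G07728 0.50 and AT2G07707 0.45, and 54 of the 67 also were in the dimmest 33.3% of probe sets, as were 20 of the 69 plastid genes. A narrower list, drawn up after the values of the first had been seen, kept those 37 loci and added genes named for mitochondrial proteins. It gave 15 of 53 (28.3%) at an unadjusted p under 0.05, all above 0, and a median of 0.22, among them orfX (1.05), nad4 (0.96) and nad1 (0.54). The first list had 7 such genes, so most of the 15 were among the added genes. The narrower list was trimmed and enlarged after values had been seen, so its higher share is given as a description only.

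Spike-in controls carry no plant RNA, and all of their 24 probe sets had an interaction above 0. Their mean was 0.42, with afb3-1 minus Ws at 0.03, −0.18 and −0.02 in KNO3 and −0.36, −0.20 and −0.88 in KCl (exact permutation test, two-sided, p = 0.1, the smallest that 3 against 3 pairs allow), and it was 0.22 without the KCl pair numbered 3. The part of green tissue and of the spike-in difference in the organelle values was not tested.

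**Figure D5:**
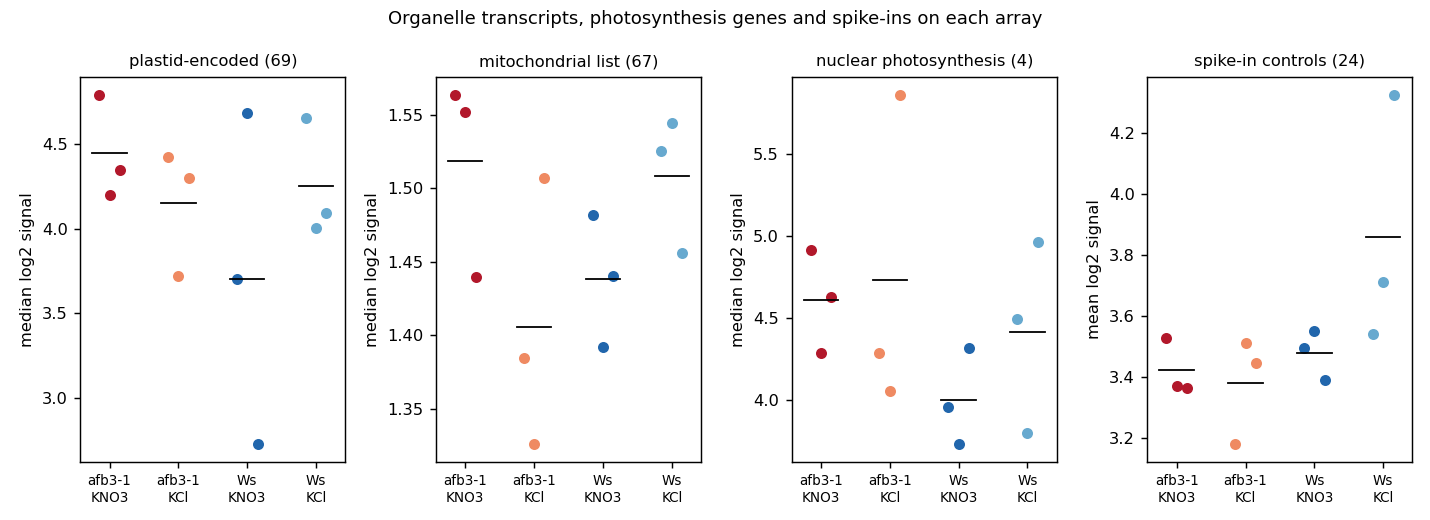
Median log2 signal per array of 69 plastid-encoded, 67 mitochondrial-list and 4 nuclear photosynthesis genes and mean log2 signal of 24 spike-in probe sets, with the groups afb3-1 KNO3, afb3-1 KCl, Ws KNO3 and Ws KCl along each horizontal axis, points for replicates 1 to 3 and a line for the mean. The plastid median falls to 2.72 on Ws KNO3 replicate 3, and the spike-in mean is highest, at 4.33, on Ws KCl replicate 3.

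A response called in one genotype and missed in the other does not show a difference between them. In the fit with 1 mean per group, 454 of 22746 probe sets passed in both genotypes, 174 in afb3-1 only and 204 in Ws only. In the paired fit an unadjusted interaction p under 0.05 was found for 50 of the 174 (28.7%) and 58 of the 204 (28.4%). It was found for 33 of the 454 called in both (7.27%) and for 9.11% of all probe sets. Selection by a large response in a single genotype raises the shares of the 174 and of the 204 in either direction. The median size of the response among those called in Ws only was 0.46 in afb3-1 and 0.76 in Ws, and among those called in afb3-1 only it was 0.78 in afb3-1 and 0.51 in Ws.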

How the data were processed

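Root RNA was biotin-labelled with an Affymetrix 3′ IVT kit, per the labels' protocols, and hybridized to 12 single-colour arrays. The deposited values were log2 signals of 22810 probe sets, one column per array, made by the authors. The sources used here do not state how background was corrected and signals were normalized. The closely matched array medians leave a shift shared by most genes hard to see. The 64 array controls were left out of the tests.

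Genes were named from GEO's platform table and updated to the TAIR10.1 RefSeq table through Entrez identifiers: 13513 probe sets had 1 gene (13436 matched), 503 had several and 8730 had none given. HHO1, HHO2, HHO3, NRG2, PGD1, PGD2 and PGD3 are names for loci that these tables give by locus, matched by a table made after the files were in hand and before interaction values were seen. For a gene with more than 1 probe set, the brightest stood for it. The mitochondrial list was the loci that begin AT2G07. After its values had been seen it was narrowed and genes named nad, cox, ccb, matR and orfX were added, and both versions are reported.

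Groups came from sample titles. With limma 3.58.1 in R 4.3.3 the 6 within-pair differences afb3-1 minus Ws were fitted, 3 KNO3 minus 3 KCl (4 residual and 6.18 prior degrees of freedom), and likewise the 6 pair means for the nitrate response over both genotypes (4 and 2.54). Tests were two-sided, with Benjamini-Hochberg adjustment over 22746 probe sets and a threshold of 0.05. The pairing was a rule set for this comparison, and the labels state no batch shared by same-numbered arrays. Deviations of same-numbered arrays correlated between 0.301 and 0.661 in the 6 pairs. The pairing is less clear in KCl. There, arrays of different number correlated up to 0.239 for replicate 1 (0.301 in its own pair) and 0.135 for replicate 2. Responses per genotype came from a fit with 1 mean per group. The procedure was tested on simulated data.

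The comparison, the gene lists and the naming rule were chosen with earlier results of these data known. The summaries of the nitrate-responsive set, the plastid complexes and the organelle medians under alternatives were added after values had been seen. The rule named the 10 smallest interaction p in each direction, the 8 largest rises and 6 largest falls with nitrate over both genotypes, and up to 4 members of each list with the smallest interaction p. Of 17 lists 12 had a member with a probe set assigned to it alone. Those without such a named probe set covered the study's subject genes, auxin transport and synthesis, the cell cycle, small heat shock proteins, and stele and endodermis. Their genes may be among the tested probe sets that had no gene given. Alternatives were other blocks, moderation, normalization, array weights, a filter on dim probe sets, a looser adjusted p of 0.1, and the omission of single pairs.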

Additional observations from a re-analysis of the deposited data

How the results depend on the processing

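The count of 0 probe sets with an interaction past the threshold held under every alternative run: no pairs, the pair as a random block (consensus correlation 0.380), the replicate number as a block across treatments, no moderation with or without pairs, a mean-variance trend with robust moderation, quantile normalization, median centring, array weights, without the dimmest 33.3%, an adjusted p of 0.1, and without each pair in turn (0 to 0). The number at an unadjusted p under 0.05 was 2073 with pairs, 664 with no replicate block, 1710 with a random block, 943 with the number as a block across treatments and 818 in the ordinary two-way analysis of variance without a replicate block, where the smallest adjusted p was 0.277. The 534 nitrate-responsive probe sets became 1515 with no replicate block, 863 at an adjusted p of 0.1, and between 189 and 553 without 1 pair (286 without KNO3 pair 1, 193 without KNO3 pair 3, 189 without KCl pair 1 and 261 without KCl pair 2). The cause was not tested. The fits without KNO3 pair 2 (493) and without KCl pair 3 (553) have as few samples as these last fits. The 450 whose interval excluded a halved response ranged from 370 without moderation to 457 with a random block, and from 407 to 437 without 1 pair. The plastid median of 0.44 ranged from 0.35 to 0.70 without 1 pair. The median of the mitochondrial list as written, 0.14, was 0.32 without the dimmest probe sets, which left 13 of the 67 genes, 0.22 with the list narrowed after values had been seen, and 0.10 to 0.20 without 1 pair. The alternatives for the organelle medians and for the halved response were chosen after seeing the data. The spike-in mean ranged from 0.22 to 0.56 without 1 pair.

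Of 76 named genes followed through the alternatives, 0 passed under any, and 63 kept the sign of the interaction under all. The sign turned for 13. The 95% interval after the turn spanned 0 except for HHO2, which without KCl pair 3 had −0.37 (−0.73 to −0.019, unadjusted p = 0.0407, adjusted p = 0.369), against 0.06 with all pairs. With array weights it was −0.22 for SUFE2, −0.21 for HHO2, −0.030 for LBD29, −0.44 for EXPA7 and 0.048 for AT2G28780. With median centring it was 0.055 for AT2G28780, 0.010 for AT2G32560, 0.025 for RR16 and 0.00648 for LHCB4.3, and with quantile normalization 0.00947 for AT2G28780. Without 1 pair it ran from −0.071 to 0.44 for WNK7, −0.067 to 0.11 for AT2G28780, −0.20 to 0.11 for AT2G32560, −0.12 to 0.28 for SUFE2, −0.45 to 0.10 for HHO3, −0.37 to 0.32 for HHO2, −0.35 to 0.16 for NRT2.5, −0.047 to 0.26 for cICDH, −0.23 to 0.10 for RR16, −0.060 to 0.91 for LHCB4.2, −0.12 to 0.031 for LHCB4.3 and −0.29 to 0.34 for EXPA7. With 3 pairs a treatment, the unadjusted 95% interval had a median half-width of 0.38. Estimates well above it also stayed short of the adjusted threshold, as for psbI at 1.56 (adjusted p = 0.473). Probe sets near background understate changes.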
